A study of Mus musculus with 8 samples.

Results

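The genes described here are 10 targets of the transcription factor ATF4: Phgdh, Psat1, Psph and Shmt2 of serine and glycine synthesis, Asns, Cth, Gpt2 and Pck2 of related amino acid and carbon metabolism, and the stress regulators Nupr1 and Ddit3. Members were all probe sets annotated to 1 of these symbols alone, which gave 24 of the 45037 non-control probe sets and 10 of the 18193 genes with such a probe set. The set was chosen by the change it showed after Rif1 knockdown in these same arrays, so those changes are given as descriptions. No p-value is printed for them. Counts past the threshold in the main fit stand beside the share of all genes, while counts from other fits often do not. Expression was measured on 8 Affymetrix mouse arrays of embryonic stem cells grown on feeder cells. J1 cells (strain 129S4/SvJae) were collected 48 hours after lipofection with a control short hairpin RNA (shRNA) or with Rif1 shRNA. F1 cells (C57BL/6xC3H) with a control shRNA or a stable Rif1 shRNA were collected at passage 16. Each of the 4 groups held 2 arrays. Rif1 encodes a protein that acts at telomeres, replication origins and DNA breaks. Nothing states that the 2 arrays of a group came from separate cultures, so errors and p-values cover the spread of these arrays alone, which may be technical. That spread was estimated once per probe set over all 8 arrays. The median standard deviation within groups was 0.115 (log2) in J1 and 0.0658 in F1. Sharing it tends to understate errors in J1 and to overstate them in F1.

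ATF4 is the main transcription factor of the integrated stress response. Kinases that sense a lack of amino acids, unfolded protein in the endoplasmic reticulum, double-stranded RNA or a lack of haem phosphorylate eIF2alpha. This lowers general translation while the Atf4 messenger RNA is translated better. ATF4 then binds composite C/EBP-ATF elements and raises genes for amino acid synthesis, import and the stress regulators. The serine and glycine branch is a source of one-carbon units for nucleotide synthesis and methylation.

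The promoters are shown because the members are grouped by a shared regulator and most of them moved together. RefSeq (GRCm38.p6) gave a window from 250 bases before to 50 bases after the start for 9 of the 10 members, with 2 starts for Psat1. The C/EBP-ATF response element was searched as the 9-letter motif TGATGNAAN and as its 7-letter core TGATGNA, which lies within it, on both strands. The longer motif was found in Asns, Pck2 and Nupr1, 3 of the 9 members, against 4.5% of the 27025 genes with such a window. The core was also in Gpt2, which made 4 of 9 members against 13.8% of genes. In Asns, encoding asparagine synthetase, the match read along the gene's strand and began 23 bases before the start. In Pck2, Nupr1 and Gpt2 it lay on the opposite strand, beginning 104, 111 and 98 bases before the start. The 250 bases before each start are printed 5′ to 3′ on the gene's strand, with the matched letters in capitals. They lie at chr6:7693210-7693459 (minus strand) for Asns, chr14:55540016-55540265 (plus) for Pck2, chr7:126625471-126625720 (minus) for Nupr1 and chr8:85492326-85492575 (plus) for Gpt2.
Asns: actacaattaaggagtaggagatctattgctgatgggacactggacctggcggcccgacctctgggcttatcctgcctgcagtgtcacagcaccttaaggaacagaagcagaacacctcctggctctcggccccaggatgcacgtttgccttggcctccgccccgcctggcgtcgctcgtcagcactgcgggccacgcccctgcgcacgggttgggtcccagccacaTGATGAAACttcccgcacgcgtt
Pck2: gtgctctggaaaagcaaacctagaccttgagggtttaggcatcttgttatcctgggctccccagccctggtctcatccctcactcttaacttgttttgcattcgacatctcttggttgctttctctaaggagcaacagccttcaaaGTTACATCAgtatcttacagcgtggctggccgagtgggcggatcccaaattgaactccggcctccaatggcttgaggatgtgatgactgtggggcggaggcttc
Nupr1: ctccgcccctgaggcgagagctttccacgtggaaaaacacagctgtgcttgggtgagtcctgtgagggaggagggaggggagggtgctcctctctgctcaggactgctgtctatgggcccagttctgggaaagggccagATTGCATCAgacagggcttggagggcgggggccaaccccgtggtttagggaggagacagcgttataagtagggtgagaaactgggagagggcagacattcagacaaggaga
Gpt2: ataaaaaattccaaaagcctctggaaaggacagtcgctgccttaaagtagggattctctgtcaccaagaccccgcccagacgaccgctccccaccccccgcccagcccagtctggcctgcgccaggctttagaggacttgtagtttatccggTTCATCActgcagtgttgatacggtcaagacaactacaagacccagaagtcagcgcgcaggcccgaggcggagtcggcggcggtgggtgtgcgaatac
A match describes the letters in these windows and was not tested as a binding site.

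Several features of the libraries stand beside every result. The brightest Rif1 probe set fell by 1.08 (log2) in J1 and by 1.74 in F1, and all 4 Rif1 probe sets were lower in both. The median deposited signal was 61.1 to 69.4 on all arrays, but the 2% trimmed mean was 193 to 197 in J1 and 301 to 309 in F1. Signals are therefore compared within a line. The ratio of the 3' to the 5' actin probe sets, a sign of RNA integrity, was 2.61 to 2.71 in J1 controls, 2.17 to 2.18 in J1 knockdown and 1.33 to 1.41 in F1. The labels give the F1 control arrays a control shRNA but also name them after the stable knockdown line. Y-linked genes summed to 37.5 and 43.3 in F1 controls, against 1065 and 1113 in F1 knockdown and 976.9 to 1115 in J1. The 2 F1 groups thus differed in Y-linked expression as well as in Rif1, and nothing shows that they came from 1 cell population. Knockdown and any other difference between the cells of the 2 F1 groups cannot be told apart. The 8 stem cell markers summed to 43516 to 52001 on all arrays, and 4 of them were lower and 1 higher in F1 knockdown (limma adjusted p under 0.05).

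In F1 knockdown cells 9 of the 10 members were lower than in control cells, and Ddit3 alone among them was higher. The changes at the brightest probe set had a median of -0.51 (log2) and ran from -1.64 to 0.42, beside a median of -0.02 over the 14714 genes tested. In J1 cells all 10 estimates were positive, from 0.04 to 0.55, with a median of 0.13 beside 0.01 over all genes. All log2 changes come from a limma fit to log2(signal + 18) after quantile normalization, and the offset of 18 understates the change of dim probe sets. A percentage of control is that change turned back into a ratio. At an adjusted p under 0.05, 9 members passed as lower and 1 as higher in F1, where 8.2% of all genes were called lower and 10.6% higher. In J1, 2 members passed, both higher, where 1.86% of all genes were called higher and 2.17% lower. Since the members were chosen on these contrasts, nothing is read from those counts. Among probe sets, 21 of 24 passed as lower and 1 as higher in F1, where 6.81% of all probe sets were called lower. In J1, 4 of 24 passed as higher, where 1.44% were. For 9 members both F1 knockdown arrays lay below both controls, as for 31.1% of all genes. For 7 members both J1 knockdown arrays lay above both controls, as for 22.2% of all genes. The J1 median was 0.21 without the second control array and 0.23 without the second knockdown array.

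**Figure D1:**
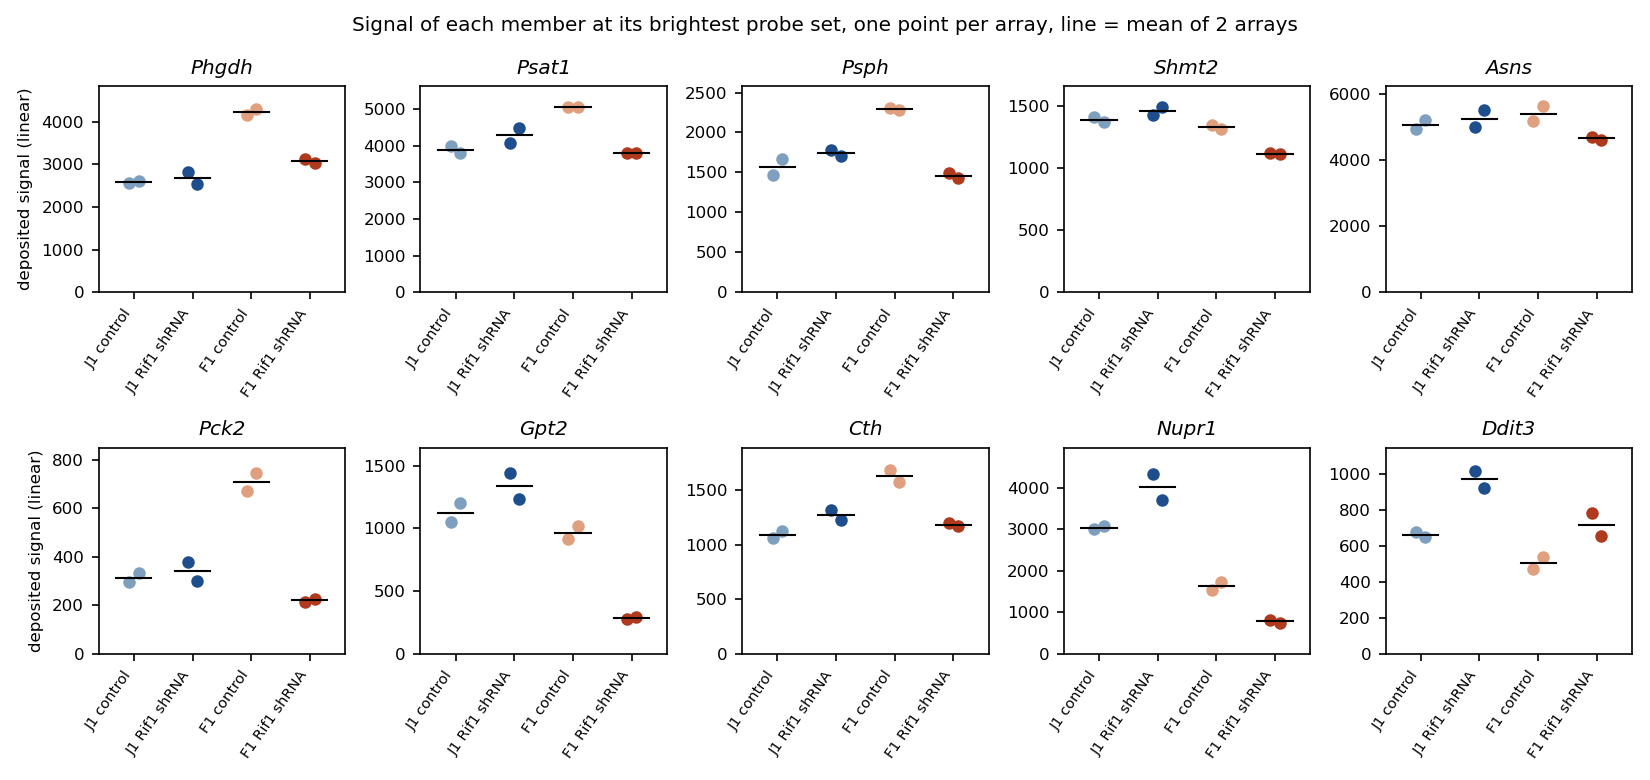
Deposited signal (linear, vertical axes from 0) of the 10 members at their brightest probe set, with 1 point per array and a line at the mean of the 2 arrays of each group. In F1 both knockdown points lie below both controls for every member except Ddit3, whose knockdown points lie above.

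The serine pathway makes serine from a glycolytic intermediate in 3 steps, and all 3 of its enzymes were lower in F1 knockdown. Phgdh, the first and committed enzyme, had signals of 4168 and 4313 on the F1 control arrays and 3121 and 3030.0 on the F1 knockdown arrays. That was a log2 change of -0.53 (SE 0.05), or 69.4% of control. In J1 its signals were 2568 and 2608 in control and 2831 and 2540.1 in knockdown, so the groups overlapped, with a change of 0.04 (SE 0.05). Psat1, the aminotransferase of the second step, had 5051 and 5063 in F1 controls and 3804 and 3799 in F1 knockdown, a change of -0.46 (SE 0.05) and 72.6% of control. Its J1 signals were 3999 and 3795 in control and 4086 and 4490.4 in knockdown, just above control, with a change of 0.10 (SE 0.05). Psph, the phosphatase that releases serine, showed the deepest F1 change of the 3. Its F1 signals were 2304 and 2283 in control and 1486 and 1427 in knockdown, a change of -0.69 (SE 0.06) and 61.8% of control. In J1 they were 1468 and 1670.3 in control and 1787 and 1709.9 in knockdown, again without overlap, with a change of 0.15 (SE 0.06). The 4 Phgdh probe sets lay between -0.67 and -0.53 in F1 and between 0.04 and 0.12 in J1. The second Psat1 probe set gave -0.62 in F1 and 0.25 in J1.

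Shmt2, the mitochondrial enzyme that turns serine into glycine and a one-carbon unit, differed less. Its signals were 1353 and 1313 in F1 controls and 1119 and 1113 in F1 knockdown, a change of -0.29 (SE 0.06) and 81.9% of control. In J1 they were 1413 and 1371 in control and 1429 and 1494 in knockdown, with a change of 0.05 (SE 0.06). All 4 Shmt2 probe sets were below control in F1, from -0.43 to -0.23, and their J1 values ran from -0.02 to 0.14. The cytosolic paralog Shmt1, not a member, had a brightest probe set at -0.17 in F1 (adjusted p = 0.087) and -0.08 in J1 (adjusted p = 0.567), which did not pass.

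Asns and Cth were also lower than their controls in F1. Asns makes asparagine from aspartate and glutamine and carries the 9-letter match printed above. Its F1 signals were 5175 and 5618 in control and 4692 and 4609.9 in knockdown. The change of -0.26 (SE 0.06), or 83.2% of control, was the smallest F1 estimate of the 10. Its J1 signals overlapped, at 4942 and 5193 in control and 4991 and 5495 in knockdown, with a change of 0.05 (SE 0.06). Cth, the enzyme that releases cysteine from cystathionine, was measured by 1 probe set. Its signals were 1692 and 1576 in F1 controls and 1201 and 1170.1 in F1 knockdown, a change of -0.50 (SE 0.06) and 70.7% of control. In J1 they were 1063 and 1124 in control and 1324 and 1229 in knockdown, both above control, with a change of 0.23 (SE 0.06). Cbs, which makes cystathionine and stands just upstream of Cth, gave -0.13 in F1 (adjusted p = 0.515) and 0.20 in J1 (adjusted p = 0.377) and did not pass in either.

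Gpt2 and Pck2 showed the deepest F1 changes. Gpt2, the mitochondrial alanine aminotransferase, had signals of 914 and 1014 in F1 controls and 278 and 293 in F1 knockdown. The change was -1.64 (SE 0.09), leaving 32% of control. In J1 its signals were 1053 and 1198 in control and 1437 and 1229.6 in knockdown, with a change of 0.24 (SE 0.09) in the opposite direction. All 4 Gpt2 probe sets followed this order, from -1.64 to -0.63 in F1 and from 0.24 to 0.27 in J1. Gpt, its cytosolic paralog, was dim and did not pass, at -0.15 in F1 (adjusted p = 0.569) and 0.09 in J1 (adjusted p = 0.798). Pck2, the mitochondrial enzyme that makes phosphoenolpyruvate, had signals of 673 and 747 in F1 controls and 214 and 225 in F1 knockdown. The change was -1.51 (SE 0.12), leaving 35.1% of control. In J1 the arrays overlapped, at 295 and 333 in control and 379 and 299 in knockdown, with a change of 0.12 (SE 0.12). The second, dimmer Pck2 probe set went from 84.2 and 79.0 to 31.7 and 33.9 in F1, a change of -0.88 (SE 0.12), and gave -0.08 (SE 0.12) in J1. None of the 3 probe sets of the cytosolic paralog Pck1 passed the filter on dim values.

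The stress regulators Nupr1 and Ddit3 parted in F1. Nupr1, a small nuclear protein induced by many stresses, had signals of 1539 and 1724 in F1 controls and 816 and 737 in F1 knockdown, a change of -1.08 (SE 0.08) and 47.2% of control. In J1 it moved the other way, from 3012 and 3074 in control to 4344 and 3702 in knockdown, a change of 0.34 (SE 0.08). Both Nupr1 probe sets showed this pattern, at -1.13 and -1.08 in F1 and 0.44 and 0.34 in J1. Ddit3, which encodes the pro-apoptotic factor CHOP, had 471 and 537 in F1 controls and 782 and 653 in F1 knockdown, a change of 0.42 (SE 0.09) and 134% of control. In J1 it went from 677 and 649 in control to 1018 and 926 in knockdown, a change of 0.55 (SE 0.09). It was thus above control in both lines, without overlap. Its second probe set was dim in J1 and overlapped in both lines, with 0.28 (SE 0.18) in J1 and 0.09 (SE 0.18) in F1, so its higher level rests on 1 probe set. The mean of both probe sets gave 0.42 in J1 and 0.25 in F1.

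Single arrays moved some of these values, again as a description. When each array was left out in turn, no F1 estimate of a member changed sign. Without the first F1 knockdown array the F1 change of Ddit3 was 0.30. In J1 the change of Nupr1 was 0.25 without the first knockdown array and 0.42 without the second. Phgdh, Asns and Pck2 had J1 estimates of -0.02, -0.01 and -0.05 when 1 of the J1 knockdown arrays was left out. The count past the threshold in F1 was 7 without the first F1 knockdown array, 8 without the second and 8 without the first F1 control array. The J1 count of 2 became 1 without the first J1 knockdown array or either F1 knockdown array. Without either J1 control array none passed in limma, with 3 and 5 members at an unadjusted p under 0.05. The share of all genes past the threshold also moved in these fits and is not given beside them. Nothing is read from these counts either.

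**Figure D2:**
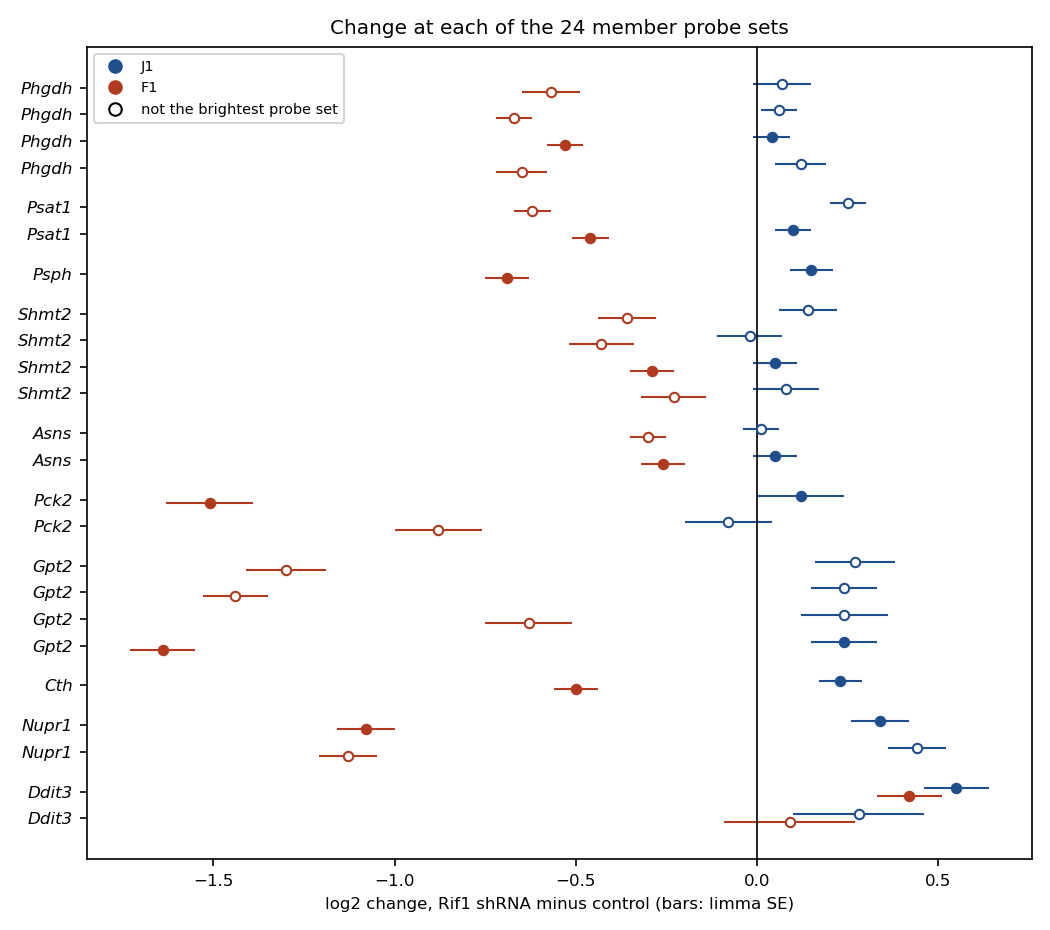
Log2 change, Rif1 shRNA minus control, at each of the 24 member probe sets in J1 (blue) and F1 (red), with limma standard errors as bars. Filled points are the brightest probe set of each gene and open points the others. The F1 points lie left of 0 for 22 probe sets and right of it for both Ddit3 probe sets.

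The F1 change minus the J1 change was negative for all 10 members, with a median of -0.65 beside -0.02 over all genes. It was largest for Gpt2 at -1.88 (SE 0.13), Pck2 at -1.63 (SE 0.16) and Nupr1 at -1.43 (SE 0.11). Psph followed at -0.84 (SE 0.09), Cth at -0.73 (SE 0.09), Phgdh at -0.57 (SE 0.08) and Psat1 at -0.56 (SE 0.07). Shmt2 at -0.34 (SE 0.08), Asns at -0.32 (SE 0.09) and Ddit3 at -0.13 (SE 0.13) stood closest to 0. The members were chosen on both contrasts, so this difference is likewise a description. Line, strain, delivery, time since knockdown and any batch differ together between the 2 settings and cannot be told apart.

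Fibroblast marker signal was higher in F1 knockdown. Of 25 feeder fibroblast markers 23 passed the filter on dim values, and 20 of these were higher in F1 knockdown (limma adjusted p under 0.05), with a median change of 1.18. Their summed F1 signal was 23360 and 23497 in controls and 44433 and 46279 in knockdown. In J1 the sum was 16891 to 17811 in controls and 15844 to 15882 in knockdown, with 1 marker higher and 5 lower. Of 8 defining fibroblast markers 7 passed the filter, and Lum was too dim. Among the 7, 5 were called higher in F1 knockdown and 0 in J1 knockdown, where 10.6% and 1.86% of all genes were. None of the 7 was at 0 on any array (lowest signal 27.2). The simple epithelial keratins Krt8 and Krt18 summed to 984.3 and 1006 in F1 controls and 8369 and 9144 in F1 knockdown. In RNA of a whole culture, fewer cells of a type and less RNA per cell cannot be told apart. The stem cell markers had a median change of -0.15 in F1 and ran from -0.54 for Esrrb to 0.25 for Tdgf1. The arrays do not tell which cells the markers came from, and the part of other cells in the members' changes was not tested.

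**Figure D3:**
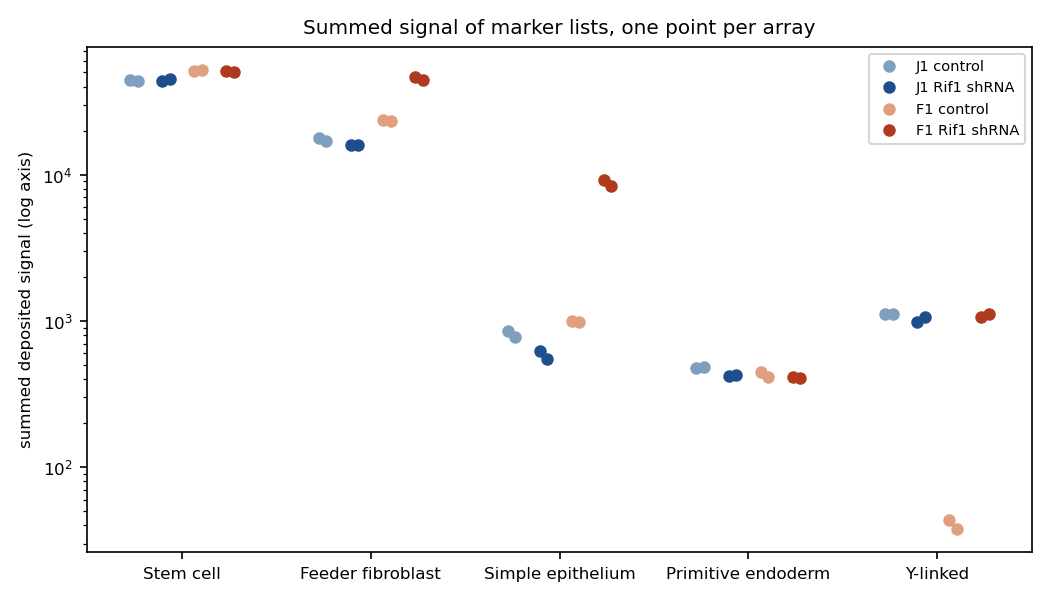
Summed deposited signal (log axis) of 5 marker lists at their brightest probe sets, with 1 point per array, coloured by group. Feeder fibroblast markers and simple epithelial keratins are highest on the F1 knockdown arrays, primitive endoderm markers lie between 409 and 487 on all arrays, and Y-linked genes are lowest on the F1 control arrays.

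The control arrays of the 2 lines gave a comparison that the choice of members did not use, although these arrays also enter both knockdown contrasts. Its outcome depended on the scaling. After quantile normalization across all arrays the median over all genes was -0.10 (F1 control minus J1 control), and 27.6% of genes were called higher and 38.4% lower in F1. With median scaling, normalization within each line or the deposited values it was 0.27 to 0.32, and 50.8% to 54.4% of genes were called higher and 19.1% to 21.4% lower. The members' median was -0.29 under the first and 0.19 to 0.24 under the others, so their split turned from 1 higher and 8 lower to 5 higher and 2 lower, as the share of all genes turned. Nupr1 was lower in F1 controls under all 4 scalings, from -1.58 (SE 0.08, adjusted p = 4.51e-08, limma) to -0.88, and passed under all 19 alternatives; its second probe set gave -1.70. Ddit3 ran from -1.12 to -0.34 at its brightest probe set, adjusted p at most 0.00623, but its dim probe set gave 1.32. Pck2 was higher, from 0.39 (adjusted p = 0.0106) to 1.16, with -0.31 at its dim probe set. Its call held in 16 of 19 alternatives and was lost without the first J1 control (0.31, adjusted p = 0.0853), without the second F1 control (0.32, 0.0856) and with its probe sets averaged (0.04, 0.734). Averaging also ended the call of Ddit3 (0.10, 0.47).

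For the other members the direction or the call turned on the scaling. Cth (-0.20 to 0.60), Psph (-0.21 to 0.56), Psat1 (-0.16 to 0.38) and Asns (-0.36 to 0.10) changed sign with the scaling. After quantile normalization the calls of Cth, Psat1 and Psph were also lost without single control arrays: Cth without the second J1 control (-0.16, adjusted p = 0.0998) or the second F1 control (-0.15, 0.132), Psat1 without the first J1 control (-0.12, 0.104) or the first F1 control (-0.16, 0.0622). Psph was lost without the second J1 control (-0.13, adjusted p = 0.118) or either F1 control (-0.21, 0.0534 and 0.0541). Gpt2 (-0.98 to -0.18) and Shmt2 (-0.84 to -0.05) passed only after quantile normalization across all arrays, and Phgdh (0.10 to 0.71) only under the other 3 scalings. Probe sets of 1 gene also differed in sign for 5 members. The widest gap was in Shmt2, from -3.83 to 1.46. Its lowest probe set read 921 and 899 in J1 controls and 61.8 and 76.0 in F1 controls. Strain, culture and any batch cannot be told apart in this comparison, and sequence differences under the probes between the strains were not tested.

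Other genes of the same response were taken from a list of 57, of which 46 were tested. The list was drawn up with earlier results of these arrays known. In F1, 18 fell, 3 rose and 25 did not pass, with a median of -0.21, where 8.2% of all genes were called lower and 10.6% higher. In J1, 3 of the 46 rose and the rest did not pass, with a median of 0.08, where 1.86% of all genes were called higher. The F1 median was -0.21 or -0.22 without the first or the second F1 knockdown array. It was -0.23 or -0.18 without the first or the second F1 control. In each of these fits fewer of these genes passed in F1, and so did fewer of all genes. The J1 median was 0.07 or 0.11 without the first or the second J1 control. It was 0.03 or 0.10 without the first or the second J1 knockdown array. Without either J1 control or either F1 knockdown array fewer of these genes passed in J1, and so did fewer of all genes. The F1 change minus the J1 change was negative for 14 genes and positive for 2 at an adjusted p under 0.05, where 4.37% of all genes were called negative and 6.25% positive.

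Atf4 itself did not pass in either line. At the brightest of its 3 probe sets its signals were 5293 and 5553 in F1 controls and 4965 and 5020.4 in F1 knockdown, a change of -0.17 (SE 0.06) with adjusted p = 0.0646. In J1 they were 2445 and 2434 in control and 2656 and 2906 in knockdown, a change of 0.16 (SE 0.06) with adjusted p = 0.179. At this probe set the arrays of the 2 groups did not overlap in either line and moved in opposite directions. The difference between the lines was -0.33 (SE 0.08) with adjusted p = 0.0275 (limma), and it passed in 10 of 19 alternatives (adjusted p 0.0077 to 0.156). It was lost without either J1 control array (0.0745 and 0.0825), without the second J1 knockdown array (0.0503), without the second F1 control array (0.119) and without either F1 knockdown array (0.133 and 0.0913). The J1 change passed without the first J1 knockdown array (0.0451), and the F1 change without either J1 knockdown array (0.0253 and 0.0255). The other 2 Atf4 probe sets overlapped in J1 and did not pass in either line. Their differences between the lines were -0.28 (SE 0.11, adjusted p = 0.158, limma) and -0.19 (SE 0.19, 0.621), which did not pass. At the brightest probe set the difference was also lost without the intensity trend (0.156). ATF4 is regulated mainly through translation, which these arrays do not measure.

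Among the 16 tested genes of the eIF2alpha and ATF4 axis, 3 rose and 6 fell in F1, beside 10.6% and 8.2% of all genes. The 3 that rose were Atf3, Atf5 and Ppp1r15a. Atf3, an immediate stress-induced factor, went from 432 and 450.2 to 1401 and 878, a change of 1.20 (SE 0.17) with adjusted p = 0.000631, which passed under all 20 alternatives (at most 0.00822). Ppp1r15a, the GADD34 subunit that directs dephosphorylation of eIF2alpha, went from 876 and 917 to 1325 and 1179, a change of 0.43 (SE 0.07) with adjusted p = 0.00267, which was lost without the first F1 knockdown array (0.0635). Atf5, a factor translated under the same control as ATF4, rose in both lines. Its F1 signals went from 467 and 451 to 683 and 605, a change of 0.39 (SE 0.08) with adjusted p = 0.0092, lost without the second F1 control (0.0834) or the first F1 knockdown array (0.148). In J1 they went from 397 and 444 to 623 and 601, a change of 0.56 (SE 0.08) with adjusted p = 0.00685, lost without the first J1 control array (0.0527). Trib3, a pseudokinase that feeds back on ATF4, fell in F1 from 930.4 and 809.9 to 585 and 626, a change of -0.53 (SE 0.09) with adjusted p = 0.00215, and held under all 20 alternatives (at most 0.0336). The others that fell were Chac1 (-0.42), Eif4ebp1 (-0.31), Cebpg (-0.31), Ppp1r15b (-0.27) and Sesn2 (-0.26).

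Of 9 amino acid transporters 6 fell in F1, where 8.2% of all genes did: Slc7a3, Slc7a1, Slc6a9, Slc1a4, Slc3a2 and Slc7a5. Slc7a3, a carrier of cationic amino acids, went from 2076 and 2055 in F1 controls to 948 and 1033 in knockdown, a change of -1.10 (SE 0.06) with adjusted p = 1.16e-06 in limma. It passed under all 20 alternatives. In J1 it rose from 1075 and 1155 to 1378 and 1347, a change of 0.29 (SE 0.06) with adjusted p = 0.0369. That call held in 7 of 20 alternatives and was lost without any 1 of the 8 arrays (adjusted p 0.0591 to 0.148). The other 5 that fell in F1 lay between -0.44 and -0.28.

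Among 11 genes of one-carbon metabolism and the methionine cycle 4 fell in F1, beside the same 8.2% of all genes: Mthfd1l (-0.42), Gldc (-0.41), Mtr (-0.32) and Mthfd1 (-0.22). Of 7 other genes of amino acid and phosphoenolpyruvate metabolism, Aldh18a1 fell in F1, from 1226 and 1119.6 to 761 and 701, a change of -0.68 (SE 0.08) with adjusted p = 0.000161 (at most 0.00361 over 20 alternatives). Aldh18a1 makes the precursor of proline, and all 5 of its probe sets were below control in F1. Of 3 stress-responsive secreted or membrane proteins, the secreted glycoprotein Stc2 rose in J1 and fell in F1 at the brightest of its 3 probe sets. A dimmer probe set gave 0.43 in J1 (adjusted p = 0.0731, limma), which did not pass, and -0.53 in F1 (0.00916). The remaining probe set passed in neither line, with 0.19 in J1 (0.405) and -0.16 in F1 (0.406). At the brightest probe set the J1 signals of Stc2 went from 486 and 537 to 676 and 702, a change of 0.44 (SE 0.09) with adjusted p = 0.0241. Its F1 signals went from 148 and 137 to 90.8 and 98.0, a change of -0.46 (SE 0.09) with adjusted p = 0.00466. The J1 call was lost without either J1 control (0.117 and 0.0768), without the second J1 knockdown array (0.065) and without either F1 knockdown array (0.0501 each). The F1 call was lost without the first F1 control (0.0544) and the first F1 knockdown array (0.0738). The F1 changes of these genes, like those of the members, stood beside the higher fibroblast marker signal and the higher Y-linked signal in F1 knockdown. The part in them of any such difference between the cells was not tested.

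**Figure D4:**
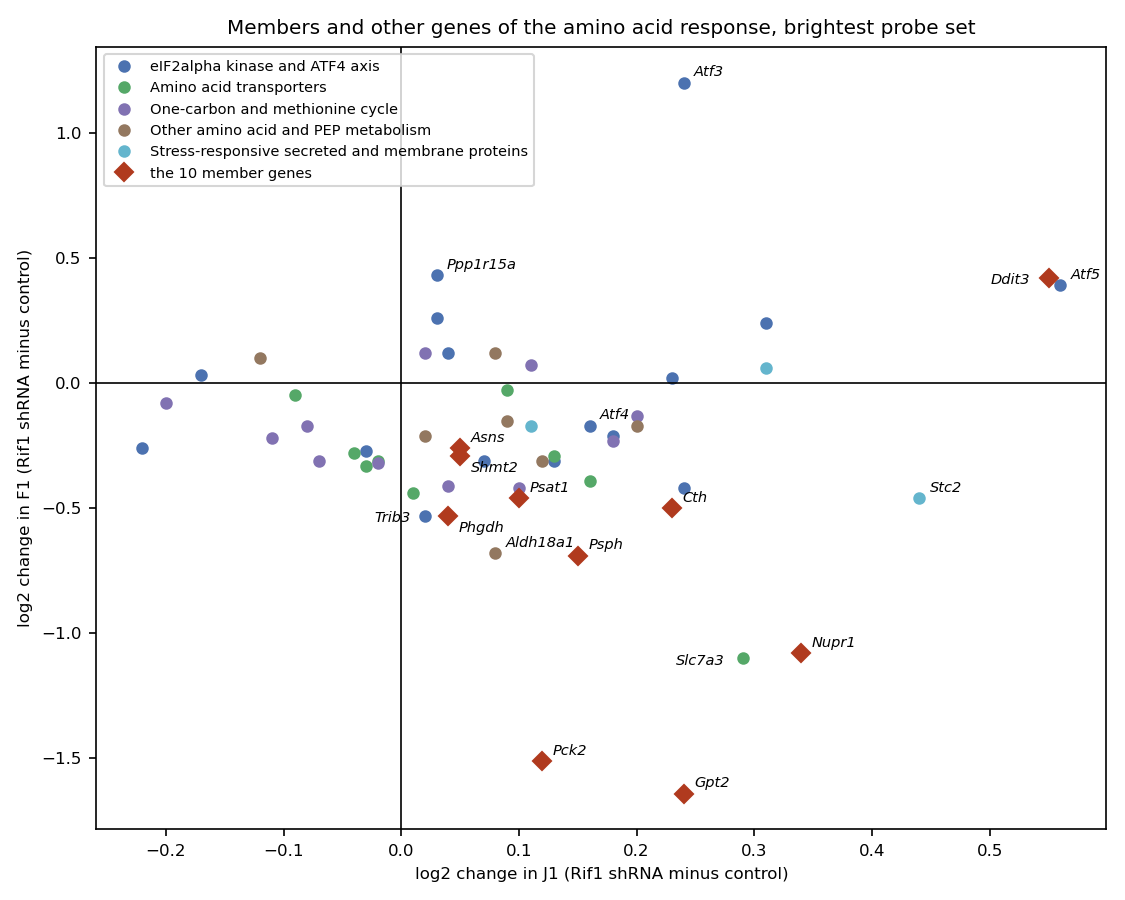
Log2 change in J1 (horizontal) against log2 change in F1 (vertical), Rif1 shRNA minus control, for the 10 members (red diamonds) and the 46 other genes of the response, coloured by role, each at its brightest probe set. The members lie right of 0 and below 0 except Ddit3, which lies beside Atf5 in the upper right.

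Most members' levels followed one another across the 8 arrays, while Ddit3 moved against the others within F1. The mean of their centred log2 levels was 0.34 and 0.39 in J1 controls, 0.60 and 0.51 in J1 knockdown, -0.17 and -0.10 in F1 controls and -0.76 and -0.81 in F1 knockdown. Each member's correlation with the mean of the other 9 was 0.69 for Pck2 and Ddit3, 0.78 for Phgdh and 0.94 to 0.99 for the rest. The members were chosen by their changes on these same arrays, so part of this likeness was built in. These values describe 8 arrays that share 4 groups and 2 lines, and the gap between lines in them is that left after quantile normalization. Outside the set, the genes with the most similar profile were Liph (r = 0.999), Riok3 (0.996), Ssx2ip (0.994), Mpdu1, Trim63 and Morc3 (0.993 each). Among these, Liph went from 228 and 244 in F1 controls to 95.3 and 95.0 in F1 knockdown. Its change was -1.02 in F1 and 0.26 in J1.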

How the data were processed

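Total RNA was hybridised to 8 Affymetrix Mouse Genome 430 2.0 arrays. The deposited values are intensity signals on a linear scale, made with MAS5 per the submitters' processing notes, with 0 missing among 45101 probe sets. The MAS5 version and other steps are not given in the sources used. The labels speak of virus or siRNA in 1 field and of shRNA in the others.

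Signals were taken as log2(signal + 18), 18 being their 10th percentile, and quantile normalized across the 8 arrays. The 64 control probe sets were dropped, and 31605 probe sets were tested, those that exceeded an array's 40th percentile on 2 or more arrays. Group means were fitted with limma 3.58.1 in R 4.3.3 (intensity trend, 4 residual and 6.94 prior degrees of freedom), two-sided, with Benjamini-Hochberg adjustment over all probe sets and a threshold of 0.05. The fit was tested on simulated data. A gene was represented by its brightest kept probe set. Gene names came from the platform annotation, and 2 probe sets with a member symbol beside others were left out. Plots were made in Python 3.11.15 with matplotlib 3.10.9.

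The members and lists were chosen with earlier results of these data known. The text names all members and Rif1, the 4 largest rises and falls among other pathway genes past the threshold in each line, Atf4, Gpt, Pck1, Shmt1 and Cbs, and the 6 closest profiles. Other genes that spell out a count were chosen after their values were seen. Same-numbered arrays did not pair (correlation of deviations -0.34 in J1 and 0.19 in F1). Alternatives were other offsets, filters, scalings, spreads, probe set rules, thresholds and blocks, and each array left out in turn. The block with crossed J1 numbers was added after seeing the data. The number of arrays limits the precision.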

Additional observations from a re-analysis of the deposited data

Results flagged for a closer look

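For 6 members both J1 knockdown arrays lay above both controls while both F1 knockdown arrays lay below theirs. The F1 change minus the J1 change was -0.56 for Psat1, -0.84 for Psph, -0.34 for Shmt2, -1.88 for Gpt2, -0.73 for Cth and -1.43 for Nupr1. The members were chosen on both contrasts, so the difference was not tested on values independent of that choice and no p is given.

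Among the other named genes of the response, limma's test of the difference between the lines passed for 7. All but Atf4 were named for their J1 or F1 change, from which this difference is built. Their p-values are therefore not independent of that choice and serve as a description. The difference was negative for Atf4 (-0.33, adjusted p = 0.0275), Trib3 (-0.56, 0.0202), Slc7a3 (-1.39, 1.55e-05), Aldh18a1 (-0.76, 0.00181) and Stc2 (-0.90, 0.0013). It was positive for Ppp1r15a (0.40, 0.0428) and Atf3 (0.95, 0.0298). All were taken at the brightest probe set, and the other 2 Atf4 probe sets did not pass. The values for Slc7a3, Aldh18a1 and Stc2 passed under all 19 alternatives. Those for Trib3 and Atf3 passed in 12 of 19, Atf4 in 10 and Ppp1r15a in 9.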

How the results depend on the processing

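Of 400 values of single members over the alternatives, 377 kept their side of the threshold, 22 lost it and 1 gained it (Psat1 in J1 with the mean of its probe sets, 0.18). Members not called in J1 count as kept while they stay uncalled, so the total says little of the J1 calls. Of 20 alternatives each, Nupr1 lost its J1 call in 8 and Ddit3 in 4. In F1, Asns lost its call in 4, Shmt2 in 3 and Ddit3 in 3. The members were chosen on these contrasts, so all this is a description. The count of members past the threshold in F1 was 7 to 10. In J1 it was 2 and became 1 with median scaling, 1 with the replicate number as a block, and 0 without the intensity trend (4 at an unadjusted p under 0.05) or at an adjusted p under 0.01 (5). It ran from 0 to 2 when each array was left out. The share of all genes called higher in J1 moved as well. It was 0.741% with median scaling, 0.89% with the block, 0.659% without the trend and 0.605% with the J1 arrays alone. The J1 median of 0.13 ran from 0.10 to 0.23 with arrays left out. The F1 median of -0.51 became -0.46 with the deposited values and -0.57 with the F1 arrays alone or with a gene's probe sets averaged. The median difference between the lines of -0.65 became -0.59 with median scaling and -0.72 when a gene's probe sets were averaged. Between controls, 9 members passed, 1 higher and 8 lower, where 27.6% of all genes were called higher and 38.4% lower. The count was 5 at an adjusted p under 0.01. The split between higher and lower turned with the scaling, as it did over all genes. Of the other pathway genes, 3 passed in J1 and 1 did with median scaling, the J1 arrays alone, no intensity trend, the replicate block or an adjusted p under 0.01; leaving out arrays gave 0 to 4. In F1 it was 21, and 18 with the block, and leaving out arrays gave 7 to 29. The block changed no other call of a member than Nupr1 in J1, and replicate numbers are shared only as names. With J1 numbers crossed, a choice made after seeing the data, the J1 counts were 2 members and 4 other genes. The causes were not tested. A fit of the J1 or F1 arrays alone could not give the comparisons between lines. Dim probe sets limit what is known of Pck1 and the second Ddit3 probe set.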
